A study of Mus musculus with 6 samples.

Results

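Cytochrome P450 enzymes were followed as a family in mouse cholangiocarcinoma, a cancer of the bile ducts. The members are all targets whose name is Cyp followed by a number and a letter, which gave 53 of the 13264 targets in the table. Within the table, members were picked by name only, not by measured values, though the family was taken up with earlier results of these data known. Cyp51, the sterol demethylase, has no letter after its number and was counted with the sterol synthesis genes. P450 genes that are no target in the table, Cyp7a1 among them, were not analysed here.

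The assay was GeoMx whole transcriptome profiling, in which gene probes bear tags that light frees from selected areas of a section for counting. Tags were collected where Desmin stained and CD45 did not, to capture cancer-associated fibroblasts together with activated stellate cells. The 3 floxed regions came from tumours of Cd274F/FCol1A1Cre mice, with both alleles of Cd274 (PD-L1) floxed, and the 3 control regions from Cd274+/+Col1A1Cre mice. Every group thus carried the Cre, which the collagen promoter drives, so cells without collagen expression would keep Cd274. All tumours were of the SB murine CCA cell line, and the sources used here do not give the age or sex of the mice. Floxed regions were areas 11, 12 and 13 and control regions areas 14, 15 and 16 of 1 slide, so genotype and position in that block cannot be told apart. No label names the animal of a region. If regions share an animal, the p-values below are too small.

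P450 enzymes are haem proteins that use oxygen and electrons from a reductase to oxidise lipids, hormones and foreign compounds. Hepatocytes hold most of them: families 1 to 3 clear drugs and toxins, family 4 hydroxylates fatty acids, and families 7, 8, 27 and 39 turn cholesterol into bile acids. Cyp1b1 differs in that it is made mainly outside hepatocytes, in mesenchymal cells among others, where it oxidises oestradiol and polycyclic hydrocarbons and is a target of the aryl hydrocarbon receptor.

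Promoter sequences are shown for the members that passed the test below. That of Cyp1b1 differs from those of Cyp1a2 and Cyp8b1 in the motifs held, but the motifs were chosen after these promoters had been read. RefSeq promoters (GRCm38.p6) were given for 41 of the 53 members and for 3 of the 4 that passed, all but Cyp7b1. Each run is the 250 bases before the annotated start, 5′ to 3′ on the gene's strand, with the motifs found in capitals.
Cyp1b1, chr17:79715062-79715311, minus strand: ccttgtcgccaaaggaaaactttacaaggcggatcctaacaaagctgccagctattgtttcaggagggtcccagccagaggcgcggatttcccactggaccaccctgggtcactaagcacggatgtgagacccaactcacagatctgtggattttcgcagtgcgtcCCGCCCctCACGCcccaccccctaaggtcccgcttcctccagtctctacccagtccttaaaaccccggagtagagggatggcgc
Cyp1a2, chr9:57683656-57683905, minus strand: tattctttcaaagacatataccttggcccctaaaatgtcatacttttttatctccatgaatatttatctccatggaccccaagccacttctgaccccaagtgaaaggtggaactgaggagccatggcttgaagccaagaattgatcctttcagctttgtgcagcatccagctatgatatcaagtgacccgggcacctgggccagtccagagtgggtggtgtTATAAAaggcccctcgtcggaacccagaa
Cyp8b1, chr9:121916306-121916555, minus strand: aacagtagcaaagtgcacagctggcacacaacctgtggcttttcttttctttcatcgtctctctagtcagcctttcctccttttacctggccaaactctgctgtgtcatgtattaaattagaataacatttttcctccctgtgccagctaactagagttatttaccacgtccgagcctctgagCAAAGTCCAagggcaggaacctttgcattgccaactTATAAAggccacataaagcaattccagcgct

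The motifs searched, on both strands, were GCGTG (the core of the xenobiotic response element, which the aryl hydrocarbon receptor binds), CAAAGTCCA (a site of the hepatocyte factor HNF4), TATAAA (the TATA box) and GGGCGG (the GC box). Cyp1b1 held GCGTG on the reverse strand at -76 to -72 and a reverse GC box at -84 to -79, with no overlap between them. GCGTG stood in 28.2% of all 27025 promoters of this length, and in 10 of the 41 member promoters, those of Cyp2b10 and Cyp4f14 among them. The GC box stood in 32.9% of all promoters and in 11 of the 41 member promoters, those of Cyp27a1 and Cyp4f13 among them. Cyp1a2 held TATAAA alone, at -29 to -24. Cyp8b1 held TATAAA at -31 to -26 and CAAAGTCCA at -67 to -59. TATAAA stood in 13.0% of all promoters and in 15 of the 41 member promoters. CAAAGTCCA stood in 0.381% of all promoters and in those of 4 members, Cyp2c67, Cyp2c70, Cyp3a41a and Cyp8b1. The motifs were chosen after the members that passed were known and their promoters had been read, so the shares are descriptions. A match is of letters in this window, and binding was not measured.

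The summed signal per region was 223253 to 393615 in floxed regions and 720786 to 1024180 in control regions, so all regions were brought to the same upper quartile (Q3), and levels below are on that scale unless stated otherwise. The negative probe, which matches no mouse transcript, read 3.18 to 3.98 in floxed regions and 6.84 to 9.41 in control regions before scaling. Floxed region 2 had the lowest signal and correlated least with the other regions (Pearson's r across targets, 0.686 to 0.806). Cd274 read 11.1, 17.4 and 29.2 in floxed regions and 10.6, 14.2 and 13.4 in control regions, which overlap, so it does not check the labels. The sources used here do not say where its probe lies relative to the floxed part. Desmin (Des) averaged 6.37 times the negative probe in floxed and 6.43 times in control regions, while Ptprc, which encodes CD45, averaged 8.28 and 5.35 times in the same order, so neither was absent. Albumin, the hepatocyte secretory protein, averaged 645 times the negative probe in floxed and 481 times in control regions, within a mask drawn for fibroblasts.

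The family lay lower above background than the median target. The ratio of a target to the negative probe of its own region does not depend on column scaling. Its median over the 53 members was 3.31 in floxed and 2.56 in control regions, against 3.93 and 4.17 over all targets. At least 2 times the negative probe was reached by 42 members in floxed and 41 members in control regions (79.2% and 77.4%, against 91.02% and 88.3% of all targets). At 3 times, 33 members remained in floxed and 23 in control regions (62.3% and 43.4%, against 66.6% and 66.4% of all targets). Cyp26c1, Cyp2ab1 and Cyp4f39 stayed below 2 times in both groups. The members farthest above the negative probe were Cyp2e1, Cyp2d12 and Cyp2d10 in both groups and Cyp1b1 in control regions.

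**Figure D1:**
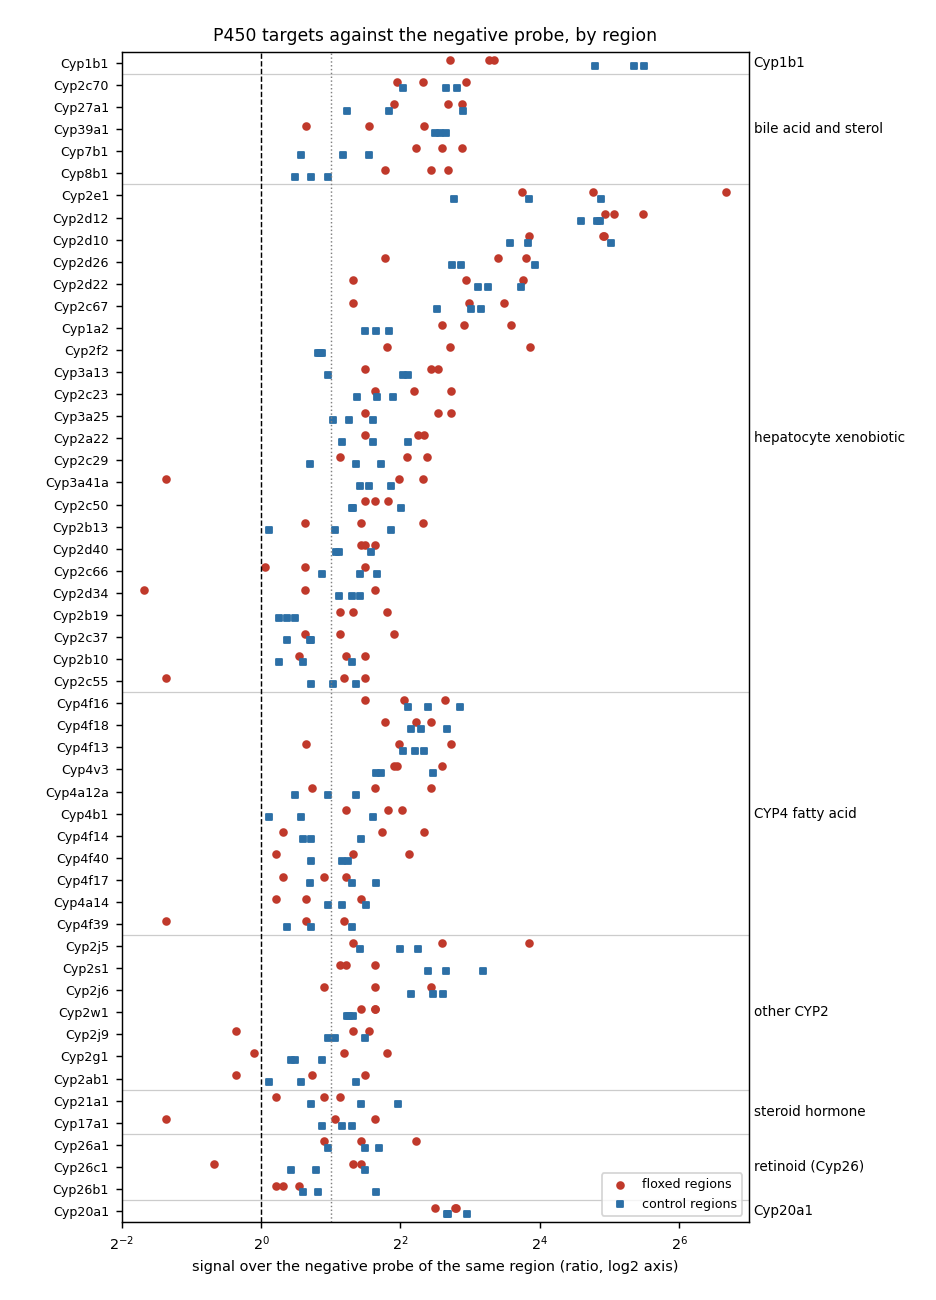
Signal of each of the 53 P450 targets divided by the negative probe of the same region (ratio, log2 axis), with 3 floxed regions as circles and 3 control regions as squares. The dashed line marks the negative probe and the dotted line 2 times its level; Cyp1b1 lies between 6.56 and 10.2 in floxed regions and between 27.7 and 45.3 in control regions.

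Of the 53 members, 3 were higher and 1 was lower in floxed regions at an adjusted p under 0.05 (limma on log2(value + 1), Benjamini-Hochberg over all 13264 targets). Over all targets, 0.588% were higher and 0.113% were lower. Cyp1a2, Cyp7b1 and Cyp8b1 rose, and Cyp1b1 fell. The groups did not overlap for 9 members with higher values in floxed regions (16.98%, against 9.99% of all targets) and for 3 members with lower ones (5.66%, against 9.06%). The median change was 0.33 over the members and 0.02 over all targets, on the log2 scale. The other 49 members had adjusted p from 0.0632 to 0.989. In these tissue regions, fewer cells of a type and less RNA per cell cannot be told apart.

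**Figure D2:**
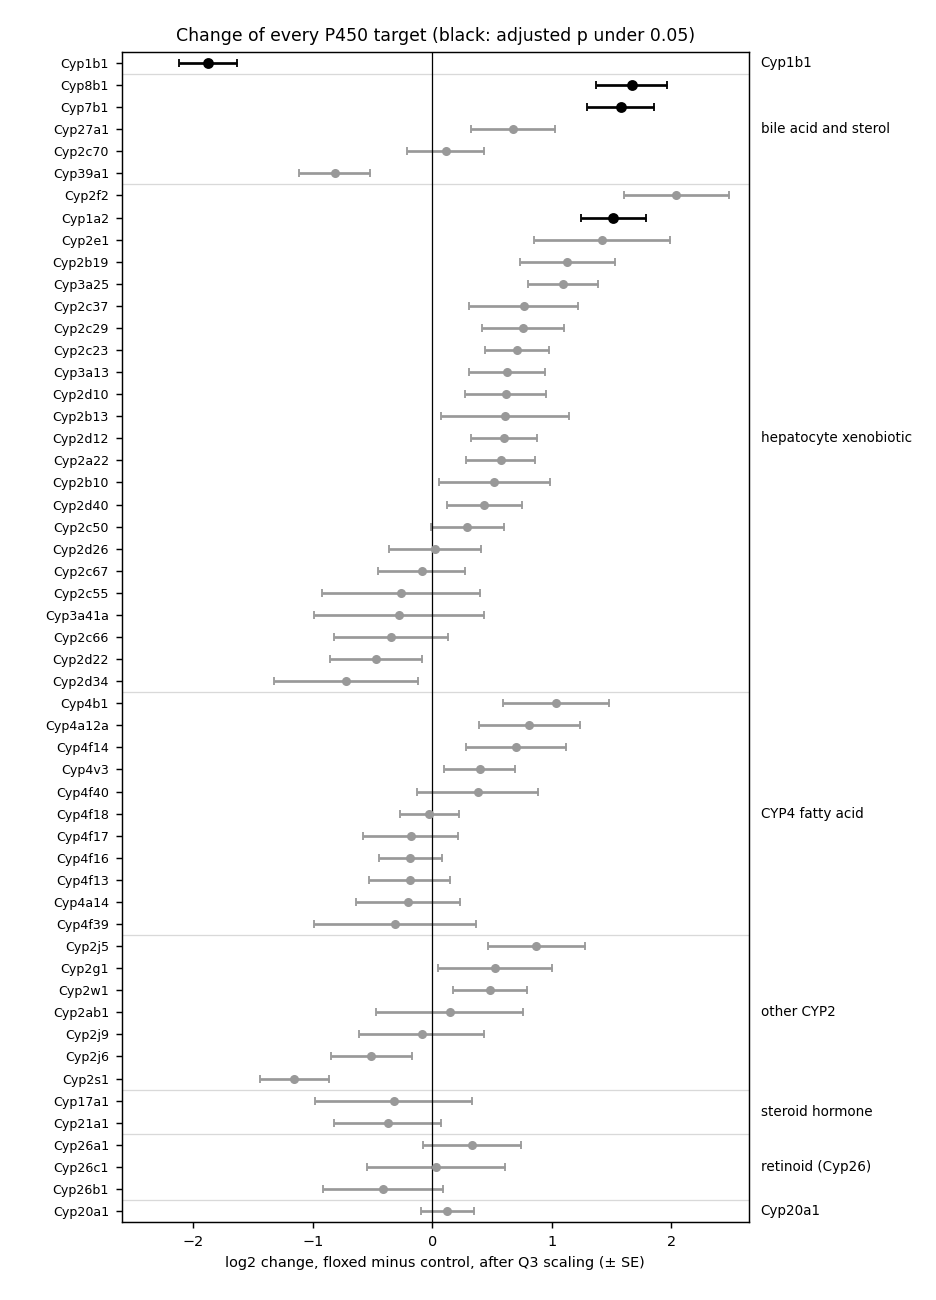
Log2 change (floxed minus control, after Q3 scaling) of each P450 target with its SE, from 3 regions per group, ordered within functional groups. Black points passed an adjusted p of 0.05: Cyp1b1 at -1.88, and Cyp8b1, Cyp7b1 and Cyp1a2 at 1.67, 1.58 and 1.52.

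Cyp1b1, the stromal member, read 46.3, 45.7 and 55.0 in floxed regions, against 208, 134 and 215 in control regions. Every floxed region lay below every control region, and the floxed regions differed little among themselves. The means were 49.0 ± 5.18 and 186 ± 44.7 (SD, n = 3 each), and the log2 change was -1.88 ± 0.24 (SE; adjusted p 0.00461, limma), a level 3.67 times lower. It was the only member far above background in both groups that passed, at 8.82 ± 1.97 and 38.0 ± 9.19 times the negative probe. As deposited, without scaling, the log2 change was -3.17, against -1.22 for the median target. On that scale 0 members were higher and 27 were lower, where 0.158% of all targets were higher and 74.7% were lower. Of the 53 members, 28 had a positive change after Q3 scaling and a negative one as deposited. The call was lost without control region 1 (adjusted p 0.0532, change -1.78) and held without each of the others.

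Fibroblast markers were also lower in sum, with most of that sum from the collagens Col1a1, Col1a2 and Col3a1. Of the 18 changes, 8 were positive. The 18 markers of fibroblasts and stellate cells summed to 4031 to 5638 in floxed regions and 6497 to 9110 in control regions, though 0 of 18 passed the test and their median change was -0.10. Col1a1 read 1510, 1411 and 2265 in floxed regions, against 2723, 3738 and 2484 in control regions (adjusted p 0.399, limma). Relative to the summed markers of the same region, a ratio free of scaling, Cyp1b1 had log2 ratios of -6.87, -6.46 and -6.68 in floxed regions, against -4.97, -6.08 and -5.21 in control regions. These ranges did not overlap, and control region 2 lay nearest to the floxed regions. Relative to Col1a1 alone, the log2 ratios were -5.03, -4.95 and -5.36 in floxed regions and -4.80 in the nearest control region. The part of fibroblast content in the lower Cyp1b1 was not tested. The 10 markers of tumour epithelium and cholangiocytes summed to 1574 to 3530 in floxed and 3790 to 6538 in control regions as well, and their part was not tested.

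Regulators of Cyp1b1 did not pass the test. Ahr, the aryl hydrocarbon receptor, read 61.1, 50.1 and 59.5 in floxed regions, against 67.2, 71.8 and 57.6 in control regions (adjusted p 0.748, limma). Of the 4 targets of this receptor listed outside the family, Tiparp alone was measured, at 14.3 ± 2.20 and 15.7 ± 0.83 (SD, n = 3 each; adjusted p 0.884). Inside the family, the CYP1 members Cyp1a2 and Cyp1b1 went opposite ways, with log2 changes of 1.52 and -1.88. The part of the receptor in either was not tested.

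**Figure D3:**
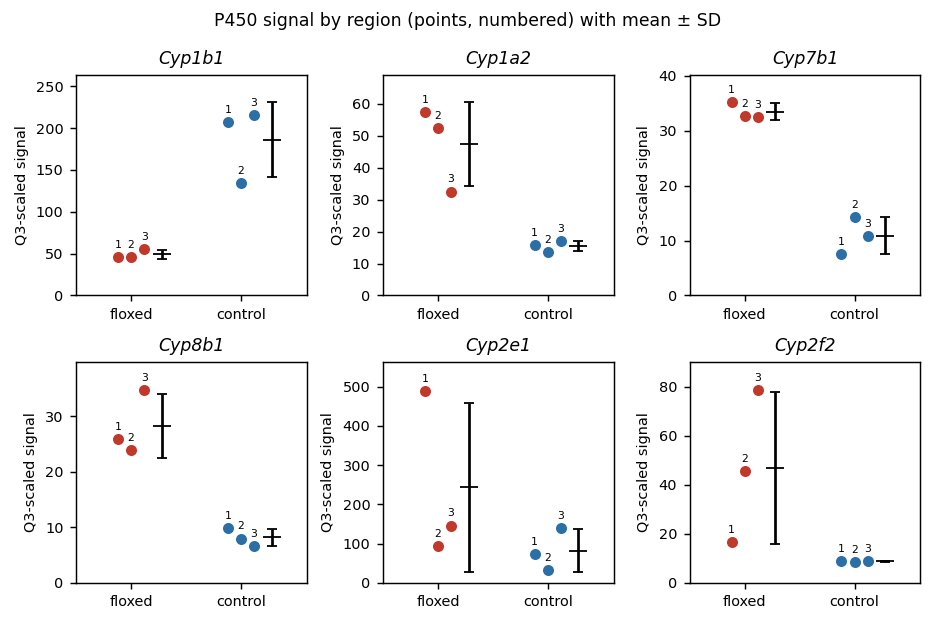
Q3-scaled signal of 6 P450 targets in each region (numbered points), floxed left of control, with mean and SD (n = 3 each). Cyp1b1 lies at 45.7 to 55.0 in floxed regions, below 134 to 215 in control regions, while Cyp2e1 and Cyp2f2 spread widely among floxed regions.

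Bile acid and sterol enzymes were represented by 5 members, of which 2 rose, 0 fell and 3 did not pass. Cyp7b1 is the oxysterol 7α-hydroxylase of the alternative bile acid pathway. It read 35.2, 32.7 and 32.5 in floxed regions, against 7.55, 14.2 and 10.8 in control regions, which is 1.58 ± 0.28 higher on the log2 scale (SE; adjusted p 0.0251, limma). Cyp8b1 is the sterol 12α-hydroxylase that directs synthesis to cholic acid. It read 25.9, 23.95 and 34.8 in floxed regions, against 9.82, 7.97 and 6.68 in control regions, which is 1.67 ± 0.30 higher on that scale (adjusted p 0.0251). For both genes every floxed region lay above every control region.

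Both lay close to background in control regions, at 2.23 ± 0.72 (Cyp7b1) and 1.66 ± 0.27 (Cyp8b1) times the negative probe, against 6.03 ± 1.34 and 5.11 ± 1.53 in floxed regions, so the sizes of these changes are uncertain. As deposited, the values overlapped: Cyp8b1 read 19.6, 10.9 and 25.7 in floxed regions, against 13.9, 11.2 and 13.2 in control regions. If the step shared by the values of a column is 1 tag, Cyp8b1 rested on 14, 11 and 31 tags in floxed regions, against 13, 14 and 13 in control regions. The rise is one relative to the other targets of a region.

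The remaining 3 enzymes of this group did not pass. Cyp27a1, the mitochondrial sterol 27-hydroxylase, read 35.2, 26.1 and 34.8 in floxed regions, against 18.1, 11.4 and 35.5 in control regions, where control region 3 reached the floxed values (adjusted p 0.452, limma). Cyp2c70, which makes muricholic acids in the mouse, read 18.5, 34.8 and 41.5 in floxed regions, against 31.7, 19.9 and 33.4 in control regions (adjusted p 0.924). Cyp39a1, the 7α-hydroxylase of 24-hydroxycholesterol, read 24.1, 10.9 and 15.7 in floxed regions, against 31.7, 27.3 and 28.3 in control regions. It lay on the opposite side from Cyp7b1, with no overlap between groups and a log2 change of -0.82 ± 0.30 (adjusted p 0.275).

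Bile acid genes outside the family gave 1 call. Of 19 genes of bile acid synthesis and transport 17 were measured, 1 rose, 0 fell and 16 did not pass, with a median change of 0.68 against 0.02 for all targets. Slc27a2, a very long-chain acyl-CoA synthetase, read 53.7, 47.9 and 48.2 in floxed regions, against 15.9, 17.7 and 28.3 in control regions (log2 change 1.28 ± 0.26, adjusted p 0.0492, limma). Slc27a5, the bile acyl-CoA synthetase, read 45.2 ± 21.5 in floxed and 17.2 ± 1.12 in control regions (SD, n = 3 each; adjusted p 0.162). Hsd3b7, which acts after the 7α-hydroxylases, read 28.7 ± 7.40 and 14.8 ± 2.28 in the same order (adjusted p 0.214).

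The group of hepatocyte enzymes of xenobiotic metabolism was set by gene name, so not every member need be a hepatocyte enzyme. It held 23 members, of which 1 rose, 0 fell and 22 did not pass. Their median change was 0.60, and 17 had a positive change. Cyp1a2, which oxidises caffeine and aromatic amines, read 57.4, 52.3 and 32.5 in floxed regions, against 15.9, 13.7 and 16.97 in control regions. The groups did not overlap, and the log2 change was 1.52 ± 0.27 (SE; adjusted p 0.0247, limma). It lay at 8.52 ± 3.12 times the negative probe in floxed and 3.17 ± 0.38 times in control regions. As deposited it overlapped, at 43.4, 23.8 and 24.01 in floxed regions, against 22.4, 19.2 and 33.6 in control regions.

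The calls on the rising members were lost when most of the regions were left out singly. Without each region in turn, the change ran from 1.36 to 1.77 for Cyp1a2, from 1.36 to 1.77 for Cyp7b1 and from 1.52 to 1.79 for Cyp8b1, all positive. Cyp1a2 held its call without floxed region 1 or 3, Cyp7b1 without floxed region 1 alone, and Cyp8b1 without floxed region 1 or 2. Elsewhere adjusted p was 0.0567 to 0.175 (limma), the first for Cyp7b1 without floxed region 2 and the second for Cyp1a2 without control region 2. Without control region 1, 2 or 3, 0 members rose. In those fits 0.113%, 0.151% and 0.249% of all targets were higher, against 0.588% with all regions. Scaling to the negative probe in place of Q3 ended all 3 calls, where 0.136% of all targets were higher. Adjusted p was then 0.121 for Cyp1a2, 0.106 for Cyp7b1 and 0.0886 for Cyp8b1 (limma). Without a mean-variance trend limma called 0 members, and 0 of all targets.

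**Figure D4:**
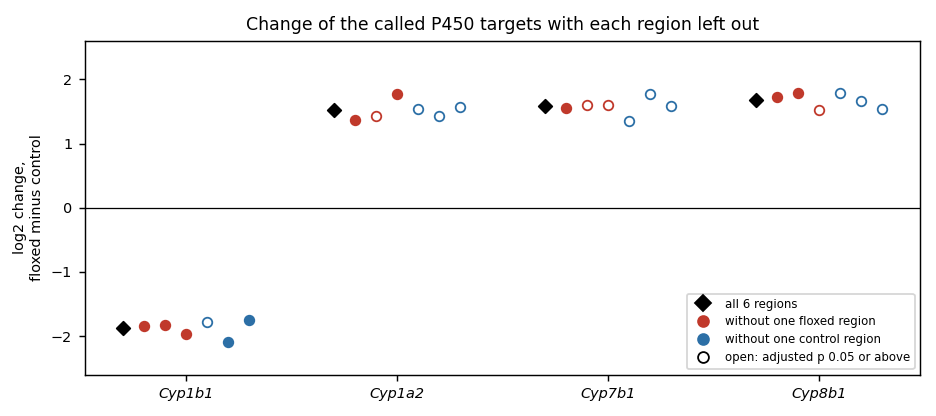
Log2 change (floxed minus control, after Q3 scaling) of the 4 P450 targets that passed, with all 6 regions (diamonds) and with each region left out in turn (circles in region order, floxed then control). Open symbols have an adjusted p of 0.05 or above; Cyp1b1 stays between -2.09 and -1.75.

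The hepatocyte enzymes highest above background varied among regions. Cyp2e1, which oxidises ethanol and paracetamol and marks hepatocytes near the central vein, read 489, 93.6 and 146 in floxed regions, against 72.5, 33.0 and 140 in control regions. Floxed region 1 stood far above the rest, the groups overlapped, and the adjusted p was 0.328 (limma). Cyp2f2, which activates naphthalene in the mouse and marks hepatocytes near the portal tract, was picked after its values were seen. It read 16.7, 45.7 and 78.5 in floxed regions, against 9.07, 8.54 and 8.74 in control regions, a difference of 2.04 ± 0.44 on the log2 scale (adjusted p 0.0632). In control regions Cyp2f2 lay at 1.80 ± 0.04 times the negative probe, near background.

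Cyp2e1 and Cyp2f2 ran in unlike order across the floxed regions: floxed region 1 was the highest for Cyp2e1 and the lowest for Cyp2f2. The log2 ratio of Cyp2e1 to Cyp2f2 was 4.87, 1.03 and 0.89 in floxed regions, against 1.95 to 4.01 in control regions. Zonation markers followed part of this order. The 9 pericentral markers measured summed to 485, 257 and 267 in floxed regions and 319, 291 and 470 in control regions. The 8 periportal markers summed to 409, 303 and 566 in floxed regions and 338, 334 and 488 in control regions. Of either list 0 markers passed the test. Hal, a periportal histidine ammonia lyase, read 7.40, 19.6 and 33.7 in floxed regions, in the order of Cyp2f2, and 10.6, 11.4 and 12.9 in control regions.

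Of the 6 CYP2D members, Cyp2d12, Cyp2d10 and Cyp2d26 lay highest above the negative probe in floxed regions, and Cyp2d34 lay at 1.66 times. Cyp2d12 read 159, 311 and 165 in floxed regions, against 122, 142 and 135 in control regions, and floxed region 2 was the highest (adjusted p 0.395, limma). Cyp2d10 read 144, 100.2 and 162 in floxed regions, against 60.4, 68.9 and 154 in control regions (adjusted p 0.468). Cyp2d26 read 66.6, 23.95 and 57.2 in floxed regions, against 37.0, 32.5 and 72.5 in control regions (adjusted p 0.987). The change of all 6 CYP2D members lay between -0.72 and 0.61, none past the test. Genes of the CYP2B, CYP2C, CYP2D, CYP3A and CYP4F subfamilies are close copies of each other, so that cross-binding between them is possible.

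Cyp3a25, a drug-metabolising CYP3A enzyme of mouse liver, read 31.5, 19.6 and 31.4 in floxed regions, against 12.1, 14.8 and 9.77 in control regions, with no overlap (adjusted p 0.146, limma), and was also named after its values were seen. The 16 members of this group not named singly had changes from -0.72 to 1.13 and adjusted p from 0.268 to 0.950. Among them, Cyp2b19 and Cyp2c23 had no overlap between groups, both higher in floxed regions (12.5%, against 9.99% of all targets). Cyp2b19, with the largest change of these, lay at 1.30 times the negative probe in control regions, near background.

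Hepatocyte RNA differed between the regions as well. Of 23 hepatocyte markers 21 were measured, and all lay at 2 times the negative probe or more in both groups. Their summed level was 14096, 5052 and 13514 in floxed regions and 7861, 7049 and 9247 in control regions. Floxed region 2 had the lowest sum and the other 2 floxed regions the highest. Among the markers 1 rose and 0 fell, with a median change of 0.28, and 14 of 21 changes were positive. The groups did not overlap for 2 markers that read higher, Fabp1 and Fgg, and for 2 that read lower, Trf and Hnf4a. Each was 9.52% of the markers, near the 9.99% higher and 9.06% lower over all targets. Trf, transferrin, read 572, 226 and 691 in floxed regions, against 709, 741 and 1274 in control regions (adjusted p 0.358, limma). Fabp1, the liver fatty acid-binding protein, read 420, 126 and 216 in floxed regions, against 31.7, 25.6 and 23.1 in control regions (adjusted p 0.00352, limma).

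Floxed region 2, with the lowest sum, was not the lowest floxed region for Cyp1a2, and was the lowest for Cyp8b1. For Cyp7b1 it was nearly level with floxed region 3, at 32.7 and 32.5. Relative to the summed hepatocyte markers of the same region, Cyp8b1 had log2 ratios of -9.09, -7.72 and -8.60 in floxed regions, against -9.64, -9.79 and -10.43 in control regions. Cyp7b1 had -8.65, -7.27 and -8.70 in floxed regions, against -10.02, -8.95 and -9.74 in control regions. Cyp1a2 had -7.94, -6.59 and -8.70 in floxed regions, against -8.95, -9.01 and -9.09 in control regions. All 3 ranges stayed apart, whereas those of Cyp27a1, Cyp2e1, Cyp2d10 and Cyp2d12 overlapped. Some members that did not pass also stayed apart, Cyp3a25 on the higher side and Cyp2s1 and Cyp39a1 on the lower side among them. Cyp39a1 had -9.19, -8.86 and -9.75 in floxed regions, against -7.95, -8.01 and -8.35 in control regions. The share of all targets that stay apart on this ratio was not computed. Relative to Alb alone, Cyp7b1 and Cyp8b1 stayed apart, but Cyp1a2 overlapped, at -6.47, -4.48 and -6.86 in floxed regions, against -7.55, -7.30 and -6.86 in control regions.

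Set against Cyp1b1 of the same region, the rising members lay further apart between groups. This follows from the calls themselves, since Cyp1b1 was lower in floxed regions, so the ratios are descriptions. The log2 ratio to Cyp1b1 of Cyp8b1 was -0.84, -0.93 and -0.66 in floxed regions, against -4.40, -4.08 and -5.01 in control regions. That of Cyp7b1 was -0.40, -0.49 and -0.76 in floxed regions, against -4.78, -3.24 and -4.32 in control regions. That of Cyp1a2 was 0.31, 0.19 and -0.76 in floxed regions, against -3.71, -3.30 and -3.67 in control regions. Probes differ in efficiency, so only the difference of a ratio between regions is meaningful. It came to 3.69, 3.57 and 3.47 on the log2 scale for Cyp8b1, Cyp7b1 and Cyp1a2. For Cyp20a1, whose own change was 0.13, it came to 2.03. For the bile acid and sterol members that did not pass, Cyp27a1, Cyp2c70 and Cyp39a1, it came to 2.61, 2.01 and 1.04.

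**Figure D5:**
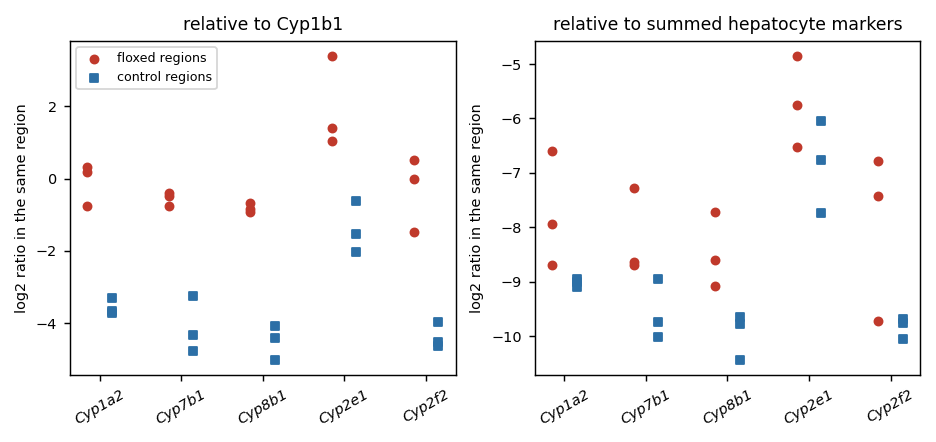
Log2 ratio of 5 liver P450 targets to Cyp1b1 (left) and to the summed hepatocyte markers (right) of the same region, with floxed regions as circles and control regions as squares. Relative to Cyp1b1, Cyp8b1 lies between -0.93 and -0.66 in floxed regions and between -5.01 and -4.08 in control regions; relative to hepatocyte markers the gap is narrower.

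The 11 CYP4 members, fatty acid hydroxylases, gave no call, with changes from -0.31 to 1.03 and a median of -0.02. Cyp4f18, which hydroxylates leukotriene B4 in mouse neutrophils, read 22.2, 23.95 and 29.2 in floxed regions, against 24.9, 21.6 and 30.3 in control regions (adjusted p 0.982, limma). Cyp4f16 read 23.9 ± 5.16 and 27.3 ± 6.44, Cyp4f13 21.2 ± 10.3 and 22.5 ± 2.61, and Cyp4v3 25.7 ± 7.02 and 19.3 ± 5.96, floxed then control (SD, n = 3 each). For each gene the difference of the means was smaller than the larger SD. The 7 CYP4 members not named singly averaged 1.41 to 3.41 times the negative probe in floxed and 1.80 to 2.41 times in control regions.

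The other CYP2 enzymes, 7 members, gave no call either. Cyp2s1, an enzyme of epithelia outside the liver, read 11.1, 15.2 and 16.8 in floxed regions, against 46.1, 25.6 and 29.8 in control regions. It had no overlap between groups and a log2 change of -1.15 ± 0.29 (SE; adjusted p 0.117, limma), the lowest after Cyp1b1. Among the markers of tumour epithelium and cholangiocytes, whose sums were also lower, Krt19 read 241, 144 and 335 in floxed regions, against 462, 431 and 297 in control regions. Cyp2j5, an arachidonic acid epoxygenase of mouse liver and kidney, read 68.5, 17.4 and 32.5 in floxed regions, against 13.6, 19.4 and 22.6 in control regions. Like Cyp2e1 it was highest in floxed region 1 (adjusted p 0.399). Its relative Cyp2j6 read 25.9, 21.8 and 10.1 in floxed regions, against 31.0, 26.8 and 21.1 in control regions (adjusted p 0.552). Cyp2w1 read 13.0, 21.8 and 16.8 in floxed regions, against 12.1, 11.4 and 11.8 in control regions, with no overlap but an adjusted p of 0.539.

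Enzymes of hormones and retinoids were at or near background. Cyp17a1 and Cyp21a1, which make androgens and corticosteroids, averaged 1.86 and 1.74 times the negative probe in floxed regions and 2.18 and 2.74 times in control regions, with adjusted p of 0.881 and 0.776 (limma). Cyp26a1, Cyp26b1 and Cyp26c1, which break down retinoic acid, averaged 3.09, 1.29 and 1.95 times in floxed regions and 2.67, 2.14 and 1.96 times in control regions, with adjusted p of 0.781 to 0.989. Cyp20a1, a member with no settled substrate, read 33.3, 39.2 and 37.0 in floxed regions, against 32.5, 30.8 and 37.0 in control regions (adjusted p 0.858).

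The machinery that P450 enzymes depend on showed no call. Of 10 electron donors and helpers 0 rose and 0 fell, with a median change of -0.05. Por, the reductase that feeds the microsomal enzymes, read 68.5, 58.8 and 80.8 in floxed regions, against 89.1, 73.5 and 83.8 in control regions (adjusted p 0.676, limma). Cyb5a, cytochrome b5, read 215, 131 and 231 in floxed regions, against 338, 335 and 304 in control regions, with no overlap (adjusted p 0.240). Of 9 haem synthesis genes 7 were measured and 0 passed, with a median of -0.26. Alad, the second enzyme of that pathway, read 56.7 ± 14.6 in floxed and 82.3 ± 5.11 in control regions (SD, n = 3 each; adjusted p 0.363).

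Of 16 nuclear receptors and other regulators 13 were measured and 0 passed, with a median change of -0.27. Hnf4a encodes the hepatocyte factor to whose site the Cyp8b1 promoter above held a letter match. Hnf4a read 24.1, 21.8 and 23.6 in floxed regions, against 58.9, 44.4 and 42.2 in control regions. It was lower in every floxed region, at -1.02 ± 0.23 on the log2 scale (adjusted p 0.0801, limma), while Cyp8b1 was higher. The other 3 members with that letter match, Cyp2c67, Cyp2c70 and Cyp3a41a, had changes of -0.09, 0.11 and -0.28. The part of Hnf4a in these values was not tested. Cebpa, another liver factor, read 48.1, 43.5 and 28.04 in floxed regions, against 12.8, 20.5 and 24.2 in control regions (adjusted p 0.173), and Foxa2 read 16.97 ± 0.40 and 27.98 ± 2.92 (adjusted p 0.263).

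Neighbouring pathways also lacked calls. Of 11 epoxide hydrolase and eicosanoid genes 8 were measured and 0 passed, with Tbxas1, thromboxane synthase, at 28.2 ± 5.58 in floxed and 12.5 ± 2.29 in control regions (SD, n = 3 each; adjusted p 0.117, limma). Of 12 retinoid genes 10 were measured and 0 passed. Aldh1a2, which makes retinoic acid, read 27.8, 17.4 and 17.9 in floxed regions, against 39.3, 58.1 and 30.8 in control regions, with no overlap (adjusted p 0.186). Of 15 sterol synthesis genes 0 passed, with a median of 0.18, and Cyp51 read 51.2 ± 29.9 and 57.5 ± 12.0 (adjusted p 0.769). Over all 81 partner genes, 1 rose and 0 fell.

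Markers of other cells were read on the same scale. The 7 T and NK cell markers summed to 74.0 to 164 in floxed and 51.4 to 62.7 in control regions, the 5 B and plasma cell markers to 211 to 1805 and 46.8 to 63.2, the 9 macrophage markers to 499 to 827 and 322 to 675, and the 8 endothelial markers to 145 to 339 and 141 to 413. Of these lists 0, 2, 1 and 0 markers rose, in that order, 0 fell, and none was at 0. Their part in the P450 values was not tested.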

How the data were processed

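The authors deposited 1 table of signal values, targets by 6 regions. The sources used here do not give how tags were counted, targets chosen or values scaled. Per the labels' protocols, tags were collected from formalin-fixed cryosections and sequenced. How regions were placed is not stated. In each region nearly all values fell on multiples of a fixed step (99.98%, within 0.01 step), but whole tag numbers were not established for every column, so no count model was run. All 6 columns were used and 0 were left out.

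Each column was scaled to the geometric mean of the Q3 values, and log2(value + 1) was fitted with limma 3.58.1 in R 4.3.3 (eBayes with a mean-variance trend) over all 13264 targets, floxed minus control, with no filter. A log2 change on this scale understates that of low genes. With 3 regions per group, the smallest two-sided p of an exact permutation test is 0.1. The fit was tested on simulated data. Errors are SD over regions, or SE of limma's change. All member names are symbols in the reference table (GRCm38.p6), and the sources used here name no build for the files.

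Members, functional groups, partner lists and marker lists were chosen with earlier results of these data known. Values by region are given for Cyp1b1, called members, bile acid and sterol members, the 4 members of each other group highest above the negative probe, and the called or 3 lowest-p genes of each partner list, of which not every one is printed. Cyp2f2, Cyp3a25, Hal, Krt19, Por, Ahr, Cyp51, Cyp2b19, Cyp2c23, Cyp2d34, Fabp1, Fgg, Trf and the motifs were chosen after their values or sequences were seen. So were the counts of members without overlap and the ratios to markers, Alb, Col1a1 and Cyp2f2. Cyp3a41a and Cyp4a12a were moved to the hepatocyte and CYP4 groups after the files were read and before any fit. Figures were drawn with matplotlib 3.10.9.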

Additional observations from a re-analysis of the deposited data

How the results depend on the processing

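The deposited scale changed most. There the median target moved by -1.22, the prior degrees of freedom were infinite, and 0 members were higher and 27 lower, against 3 and 1 after Q3 scaling, with 0 and 54 partner genes (74.7% of all targets were lower, and 0.158% higher). The share of higher calls over all targets thus turns with the scaling. Of the 53 members 28 changed sign there, all to negative values between -1.25 and -0.06. Among those named, Cyp2c70, Cyp4v3, Cyp2d26, Cyp20a1, Cyp26a1 and Cyp26c1 turned to -1.16, -0.86, -1.25, -1.15, -0.90 and -1.15, past the threshold, and Cyp27a1, Cyp2d12, Cyp2d10, Cyp2j5, Cyp2w1 and Cyp3a25 to -0.59, -0.71, -0.69, -0.38, -0.75 and -0.14, not past it. With negative-probe scaling, which moves the median target by -0.17, 0 members and 0 partner genes were higher, and Cyp2c70, Cyp2d26, Cyp20a1 and Cyp26c1 turned to -0.088, -0.17, -0.074 and -0.16. Quantile normalization turned Cyp2d26 to -0.019 and Cyp26c1 to -0.14. Without a mean-variance trend limma called 0 members in either direction and 0 partner genes higher, with 11 members at an unadjusted p under 0.05 against 13 with the trend, and a lowest adjusted p of 0.0731, that of Cyp1b1. Partner genes higher were also 0 with quantile normalization, a pseudocount of 0.5 or a filter at 2 times the negative probe, and 1 was lower at a threshold of 0.1. With each region left out, members called higher ran from 0 to 4 and lower from 0 to 3, and partner genes from 0 to 6 and from 0 to 7, each time with the most calls without floxed region 1. In that fit 4.05% of all targets were higher and 3.67% lower, against 7.55% and 5.66% of members and 7.41% and 8.64% of partner genes. With a region left out, the change took both signs, none past the threshold where turned, for Cyp2c70 (-0.12 to 0.45), Cyp4f18 (-0.14 to 0.10), Cyp4f13 (-0.52 to 0.20), Cyp2d26 (-0.25 to 0.47), Cyp17a1 (-1.002 to 0.53), Cyp26a1 (-0.15 to 0.66) and Cyp26c1 (-0.39 to 0.66). Members at 3 times the negative probe were 23 in control regions, against 41 at 2 times. The causes were not tested. Total scaling, quantile normalization, pseudocounts of 0.5 and 5, the filter and robust variances left 3 members higher and 1 lower. The edgeR alternative was not run, since whole tags were not established. No paired analysis was possible because the labels give no replicate numbers that groups share. Floxed regions rest on the fewest steps, with 11, 11 and 19 for the median target against 26, 36 and 40 in control regions.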
